A study of Homo sapiens with 40 samples.

Results

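TREM2 is a receptor on the surface of microglia, the resident macrophages of the brain. It binds lipids, lipoproteins and other anionic ligands and signals through the adaptor TYROBP, whose ITAM motif recruits the kinase SYK. The pathway is known for its part in phagocytosis, lipid handling and survival of microglia, and for the raised risk of Alzheimer's disease that its variants carry. The comparison described here is of human microglia-like cells without functional TREM2 and their unedited counterparts. The TREM2-KO group had 8 RNA-seq libraries from cells in which CRISPR/Cas9 editing had altered TREM2 on both alleles, and the WT group had 7 libraries from unedited cells of the same background, the established embryonic stem cell line H9. Cells of either group passed through blood progenitors, which were collected on day 11 and grown for 28 days with IL-34, TGF-beta 1 and M-CSF, with CD200 and CX3CL1 added for the last 3 days. The labels do not give the number of edited clones behind the TREM2-KO libraries or say whether libraries came from separate differentiations, so the p-values rest on library-to-library spread alone, and that spread may be technical. Levels are in TPM, an RNA abundance per transcript length whose sum over genes is fixed and equal for all libraries. Of 60504 genes, the 13515 with at least 1 TPM in at least 7 of the 15 libraries were compared. Changes are differences of mean log2(TPM + 1), TREM2-KO minus WT, tested with limma and adjusted by Benjamini-Hochberg over the 13515 genes. They understate the change of weakly expressed genes. A gene is called where its adjusted p is below 0.05. The fit holds all 40 libraries of the series in 7 groups. It thus includes the edited lines TREM2-R47H, SORL1-KO, SORL1-A528T, CD33-SNP and INPP5D-SNP. Standard errors and p-values draw on the spread of all these libraries, while n gives the libraries compared.

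The libraries had 13224 to 14086 genes at 1 TPM or more. Microglia and macrophage identity genes, among them CSF1R, AIF1, P2RY12 and C1QA, summed to 10287 to 14859 TPM in TREM2-KO libraries and to 9610 to 11540 TPM in WT libraries, and 0 of 16 were called, or 3 higher in the fit with library numbers as a block. Markers of other cells were compared as well. Summed lymphoid markers stayed between 11.2 and 17.7 TPM. The 21 monocyte and neutrophil markers summed to 388 to 2495 TPM in TREM2-KO libraries (median 1026) and to 343 to 3684 TPM in WT libraries (median 523). Of these ELANE, PRTN3, CTSG and LCN2, which encode neutrophil granule proteins, were at 0 in all 15 libraries, and of the 12 kept 0 were called (median change 0.44; 2 higher and 1 lower with the block). The sum of the 20 endothelial and stromal markers ran from 195 to 467 TPM in TREM2-KO libraries (median 339) and from 191 to 3286 TPM in WT libraries (median 766), and 0 of them were at 0 throughout a group. The stromal score, the mean log2(TPM + 1) of these 20 markers, was 1.30 ± 0.65 in TREM2-KO libraries and 2.55 ± 1.24 in WT libraries (SD, n = 8 and 7). The part of these markers in a result was not tested, and for named genes that lost their call with the score as a covariate, the value is given beside the result. The part of the monocyte and neutrophil markers was not tested either. In bulk RNA, fewer cells of a type and less RNA per cell cannot be told apart. TREM2-KO libraries 4 and 8 stood apart from the other 13 on the first principal component, which held 35.2% of the variance, and their median correlation with the rest of their group was 0.947 and 0.927, against at least 0.968 for every other library.

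TREM2 (ENSG00000095970, GRCh38 chromosome 6, 41158506 to 41163186, minus strand) had 24.6, 37.6 and 46.5 TPM in TREM2-KO libraries (lowest, median and highest, the order used throughout), against 295, 500 and 585 TPM in WT libraries. The change was -3.64 ± 0.17 (SE, n = 8 and 7; limma adjusted p = 8.3e-18), and a two-sided exact permutation test gave p = 0.0003, the smallest that 8 against 7 libraries allow. Some TREM2 RNA thus remained in every TREM2-KO library. TYROBP, its adaptor, had 1416, 1583 and 2609 TPM in TREM2-KO libraries and 1520, 1766 and 2072 TPM in WT libraries, a change of -0.04 (limma adjusted p = 0.943). Of the 5 genes kept from the TREM receptor cluster around TREM2 on chromosome 6, TREM2 alone was called, and the neighbouring TREML1 had a change of -0.09 (limma adjusted p = 0.889).

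The lowest adjusted p-values besides that of TREM2 belonged to neighbouring genes on chromosome 1. TYW3, an enzyme of wybutosine synthesis in phenylalanine tRNA, had 0, 0.08 and 0.1 TPM in TREM2-KO libraries, against 5.55, 7.68 and 9.07 TPM in WT libraries (-2.98 ± 0.13; limma adjusted p = 1.8e-18). CRYZ, the quinone oxidoreductase zeta-crystallin, had 0, 0.04 and 0.36 TPM in TREM2-KO libraries, against 2.53, 3.71 and 4.23 TPM in WT libraries (-2.03 ± 0.11; limma adjusted p = 3.8e-16). Both genes were thus close to undetected in all 8 TREM2-KO libraries and present in all 7 WT libraries. They were also present in the other edited lines of the series, at a mean of 7.14 TPM of TYW3 and 3.01 TPM of CRYZ in SORL1-KO libraries and of 8.13 TPM and 3.1 TPM in TREM2-R47H libraries. The genes are transcribed away from each other, and their RefSeq starts lie at chr1:74733050 on the minus strand for CRYZ and chr1:74733152 on the plus strand for TYW3 (GRCh38.p14). The window below is the RefSeq promoter window of CRYZ, chr1:74733001-74733300, minus strand. It is shown because it holds the starts of both genes, with the 101 bases between them in capitals.
CRYZ: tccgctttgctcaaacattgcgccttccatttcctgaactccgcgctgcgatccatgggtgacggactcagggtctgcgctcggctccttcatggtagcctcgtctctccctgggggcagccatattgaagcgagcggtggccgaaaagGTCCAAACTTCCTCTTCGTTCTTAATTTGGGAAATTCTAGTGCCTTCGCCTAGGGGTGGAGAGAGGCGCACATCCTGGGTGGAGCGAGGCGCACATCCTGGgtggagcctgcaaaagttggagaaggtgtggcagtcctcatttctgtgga
GENCODE 29 models of the pair overlap by 257 bases. Reads from that overlap could be split between the genes, and the strand setting of the counting step is not stated in the labels.

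**Figure D1:**
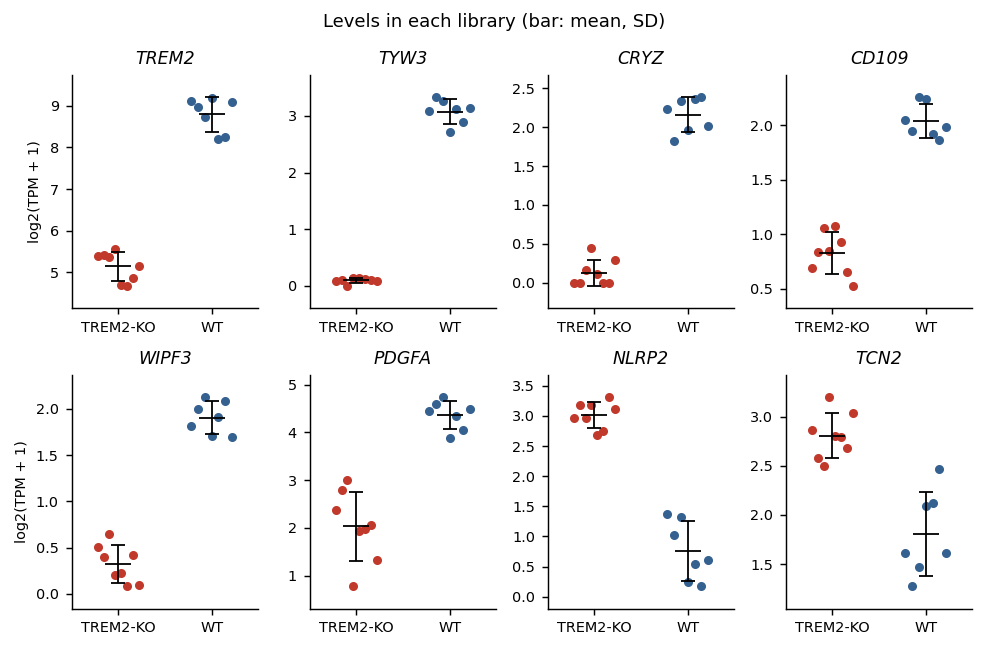
Levels of 8 genes in each library, as log2(TPM + 1) on the vertical axis, with TREM2-KO libraries on the left and WT libraries on the right of each panel; bars give the mean and SD. In each of the 8 genes shown the groups do not overlap, with TREM2, TYW3, CRYZ, CD109, WIPF3 and PDGFA lower and NLRP2 and TCN2 higher in TREM2-KO.

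Over all 13515 genes, 212 were called (1.57%), 41 higher (0.303%) and 171 lower (1.27%) in TREM2-KO, and the median change was -0.002. The unadjusted p was below 0.05 for 1376 genes. At least a 2-fold change was seen in 91 called genes, 9 higher and 82 lower. The libraries of the groups did not overlap for 22 genes higher (0.163% of those tested) and 59 lower (0.437%), of which 12 and 49 were called. Of the 212, 132 belonged to none of the 66 gene lists used here, and 203 were protein-coding. Deviations from the group means were weakly correlated between libraries that share a number (0.125 to 0.333), and the main fit does not use the number. With the number as a blocking factor in the 15 libraries alone, 507 genes were called, 184 higher (1.36%) and 323 lower (2.39%). That fit draws on numbers 1 to 7 alone, since number 8 exists only in TREM2-KO, and 186 of the 212 were called in it in the same direction. The count was 136 without WT library 2, and 143 (41 higher and 102 lower) in a fit of the 15 libraries alone without the block. Leaving out each of the 15 libraries in turn kept 113 of the 212 calls in every fit, 16 higher and 97 lower. The genes described below are among these unless stated otherwise. Other alternatives ended the calls of some of them, and some of these losses are listed at the end. Against the mean of the 3 other edited lines with 7 libraries each (TREM2-R47H, SORL1-KO and SORL1-A528T), 1422 genes were higher (10.5%) and 722 lower (5.34%) in TREM2-KO, or 1000 higher and 929 lower with median-ratio scaling. That contrast shares the TREM2-KO libraries with the first, so its values are set beside the others as a description.

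**Figure D2:**
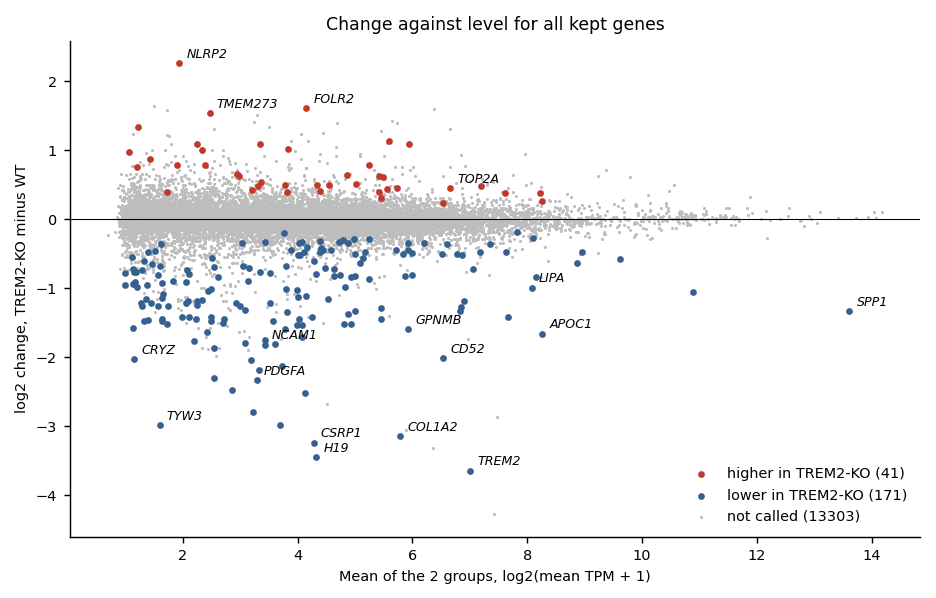
Change (TREM2-KO minus WT, log2) of each of the 13515 genes against its level, the mean of log2(mean TPM + 1) of the groups. Called genes are coloured, 41 higher and 171 lower in TREM2-KO; TREM2, H19, CSRP1 and COL1A2 lie lowest among the called genes and NLRP2 highest.

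Several genes, most of them of low expression, had changes larger than 1 on the log2 scale with no overlap between the groups. CD109, a GPI-anchored surface protein that binds TGF-beta, had 0.44, 0.795 and 1.11 TPM in TREM2-KO libraries, against 2.65, 2.95 and 3.79 TPM in WT libraries (-1.21 ± 0.11; limma adjusted p = 2e-09). WIPF3, of the family of WASP-interacting proteins, had 0.06, 0.245 and 0.57 TPM in TREM2-KO libraries, against 2.23, 2.78 and 3.36 TPM in WT libraries (-1.58 ± 0.20; limma adjusted p = 2.5e-06). The groups did not overlap for either gene, and both were also lower than in the 3 other edited lines, by -1.41 and -2.22 (limma adjusted p = 3.5e-14 and 1.4e-12). PDGFA, a growth factor for mesenchymal and glial cells, had 0.72, 3.06 and 6.98 TPM in TREM2-KO libraries, against 13.8, 20.8 and 25.6 TPM in WT libraries (-2.33 ± 0.26; limma adjusted p = 1.5e-07). FZD7, a Wnt receptor, had 0.64, 1.02 and 1.61 TPM in TREM2-KO libraries, against 2.54, 3.63 and 4.45 TPM in WT libraries (-1.14 ± 0.14; limma adjusted p = 1.2e-06). The lowest WT library lay above the highest TREM2-KO library in each. NOTCH3, which encodes a Notch receptor, fell by 1.26 (limma adjusted p = 0.000531) against WT, and it and FZD7 were the called members among 32 kept genes of Wnt and Notch signalling, whose median change was 0.01.

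Among the lower genes were receptors and adhesion molecules of the cell surface, most of them in none of the lists. RAMP1, the subunit that turns the calcitonin receptor-like receptor into a receptor for CGRP, had 0.9, 6.78 and 9.83 TPM in TREM2-KO libraries, against 13.3, 22.4 and 37.9 TPM in WT libraries (-2.12 ± 0.38; limma adjusted p = 0.00109). Podoplanin (PDPN), a mucin-type glycoprotein, had 3.29, 4.78 and 9.15 TPM in TREM2-KO libraries, against 11.7, 18.7 and 34.5 TPM in WT libraries (-1.80 ± 0.26; limma adjusted p = 3.7e-05). Neither gene overlapped between the groups. The neural cell adhesion molecule NCAM1 had 1.18, 4.69 and 7.73 TPM in TREM2-KO libraries and 7.6, 22.4 and 27.7 TPM in WT libraries (-1.82 ± 0.30; limma adjusted p = 0.000297), so the highest TREM2-KO library just passed the lowest WT library. CD52, a small GPI-anchored glycoprotein of leukocytes, had 16.1, 38.5 and 108 TPM in TREM2-KO libraries and 62.4, 160 and 252 TPM in WT libraries (-2.01 ± 0.43; limma adjusted p = 0.0069). It overlapped between the groups and was not called without TREM2-KO libraries 4 and 8 (-1.68, limma adjusted p = 0.0516). Its call was also lost without libraries 5 and 6 of both groups. FCMR, the Fc receptor for IgM, had 24.3, 76.9 and 116 TPM in TREM2-KO libraries and 81, 204 and 244 TPM in WT libraries. Its change was -1.33 ± 0.26 (limma adjusted p = 0.00297), and it was not called in the fit of the 15 libraries alone. IL24, a cytokine of the IL-10 family whose gene ends 246 bases from the end of FCMR on the other strand, also fell (-1.31 ± 0.23; limma adjusted p = 0.000834); without a stated strand setting, reads near these ends may be shared. Each of these 6 genes was also lower than in the 3 other edited lines, with differences of -2.39 for RAMP1, -1.60 for PDPN, -1.70 for NCAM1, -2.89 for CD52, -1.38 for FCMR and -1.24 for IL24.

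Lower genes also included kinases, phosphatases and regulators of G protein and transcription factor activity. The Src-family kinase FYN had 8.62, 15.8 and 29.9 TPM in TREM2-KO libraries and 29.9, 53.5 and 72.9 TPM in WT libraries (-1.52 ± 0.26; limma adjusted p = 0.000531). The groups met in FYN only in that its highest TREM2-KO library was level with its lowest WT library. RGS1, which speeds GTP hydrolysis by G protein alpha subunits, had 37, 85.3 and 115 TPM in TREM2-KO libraries, against 120, 173 and 236 TPM in WT libraries (-1.18 ± 0.18; limma adjusted p = 9.3e-05). RGS4, of the same family, fell by 1.79 (limma adjusted p = 0.00913), and was not called without TREM2-KO libraries 4 and 8 (-1.51, limma adjusted p = 0.0603) or without libraries 5 and 6 of both groups. The transcription factor ETS1 had 3.82, 5.54 and 7.24 TPM in TREM2-KO libraries, against 8.65, 11 and 12.6 TPM in WT libraries (-0.90 ± 0.11; limma adjusted p = 2.5e-06). NAB2, a corepressor that binds EGR factors, had 11, 20.6 and 27.7 TPM in TREM2-KO libraries and 23.6, 36.4 and 40.9 TPM in WT libraries (-0.81 ± 0.18; limma adjusted p = 0.0109; not called without TREM2-KO libraries 4 and 8, -0.59, limma adjusted p = 0.0924). In the list of immediate early transcription factors 5 of 18 members fell (EGR1, EGR2, EGR3, ATF3 and MAFF) and 0 rose, with a median of -0.42. With the block 9 fell. EGR1 and EGR3 were not called in the fit of the 15 libraries alone. EGR2 and ATF3 were not called without libraries 5 and 6 of both groups, and EGR2 was not called on log2(TPM + 5) either. Of 21 members of the MAPK and growth factor feedback list 2 fell and 0 rose (median -0.36): DUSP1, a phosphatase of MAP kinases (-0.56 ± 0.09; limma adjusted p = 0.000106), and DUSP4. DUSP4 had a change of -0.79 (limma adjusted p = 0.0466), lost its call in 13 of the 15 fits without a library, and differed by -0.01 from the other edited lines. Among 21 genes of ITAM signalling, the pathway directly below TREM2 and TYROBP, PTPN6 alone was called, with a change of -0.27 (limma adjusted p = 0.0355). That call was lost in 9 of the 15 fits and with the stromal covariate (-0.19, limma adjusted p = 0.203). With the block 1 ITAM gene was higher and 2 were lower.

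Genes of the actin cytoskeleton and of its links to integrins were among the lower ones, in and outside the lists. MYO1E, a class I myosin of membrane protrusions and endocytosis, had 52, 66.8 and 114 TPM in TREM2-KO libraries and 110, 184 and 215 TPM in WT libraries (-1.27 ± 0.17; limma adjusted p = 9.9e-06). The actin-severing protein scinderin (SCIN) had 0.26, 0.95 and 5.88 TPM in TREM2-KO libraries and 5.74, 9.79 and 17.8 TPM in WT libraries (-2.30 ± 0.34; limma adjusted p = 5.5e-05). In both genes the highest TREM2-KO library was slightly above the lowest WT library. FERMT2, a kindlin that activates integrins, had 1.11, 1.65 and 2.88 TPM in TREM2-KO libraries, against 3.42, 4.6 and 9.04 TPM in WT libraries (-1.21 ± 0.18; limma adjusted p = 3.8e-05). Tensin 3 (TNS3), which ties integrin tails to actin, had 19.1, 26.4 and 30.9 TPM in TREM2-KO libraries, against 31.7, 41.5 and 62 TPM in WT libraries (-0.63 ± 0.14; limma adjusted p = 0.0106). Neither of these overlapped between the groups. With CSRP1 and NEDD9 they were the 4 of 30 kept focal adhesion genes that fell, while 0 rose and the median was -0.18; NEDD9 was lost in 3 of the 15 fits and with the stromal covariate (-0.36, limma adjusted p = 0.177). The actin list had 2 of 35 lower and 0 higher (median -0.14). Of these 2, SCIN was kept, and the other was lost in 10 of the 15 fits and with the stromal covariate. With that covariate the actin list had 1 lower and 1 higher. With the block 7 focal adhesion and 7 actin genes fell. With the stromal score as a covariate FERMT2 kept its call (-0.98, limma adjusted p = 0.00274), as did MYO1E and TNS3 (-1.51 and -0.77, limma adjusted p = 2.2e-06 and 0.00446). Without TREM2-KO libraries 4 and 8 TNS3 and NEDD9 were not called (-0.54 and -0.47, limma adjusted p = 0.0591 and 0.0927).

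The lower genes included some of fatty acid handling and of sphingolipid synthesis. FABP3, a carrier of fatty acids in the cytosol, had 9.44, 15.1 and 27.5 TPM in TREM2-KO libraries, against 30.2, 47.8 and 57.4 TPM in WT libraries (-1.52 ± 0.18; limma adjusted p = 9.8e-07). PPARG, a nuclear receptor that responds to fatty acids, had 0.79, 1.56 and 3.63 TPM in TREM2-KO libraries, against 3.98, 5.42 and 6.32 TPM in WT libraries (-1.19 ± 0.19; limma adjusted p = 0.000127). With the lipoprotein lipase LPL (-1.45, limma adjusted p = 0.00691) they were the 3 of 31 kept genes of lipid storage and fatty acid handling that fell, and 0 rose (median -0.04). LIPA, the lysosomal acid lipase, had 143, 191 and 247 TPM in TREM2-KO libraries and 218, 441 and 492 TPM in WT libraries (-0.99 ± 0.23; limma adjusted p = 0.0128; without TREM2-KO libraries 4 and 8 -0.92, limma adjusted p = 0.0544). It was the only called member of 32 lysosomal hydrolases, whose median was 0.01. With the block 2 of these hydrolases were higher and 1 was lower. UGCG, which makes glucosylceramide, the base of most glycosphingolipids, had 20.9, 26.1 and 30.7 TPM in TREM2-KO libraries, against 33.1, 37.5 and 40.2 TPM in WT libraries (-0.50 ± 0.06; limma adjusted p = 2.5e-06). ST3GAL5, the GM3 ganglioside synthase further along the same route, fell by 0.67 (limma adjusted p = 0.0254) and lost its call in 6 of the 15 fits. PCYT1A, the rate-limiting enzyme of phosphatidylcholine synthesis by the CDP-choline route, had 41.3, 55.2 and 57.3 TPM in TREM2-KO libraries and 55.8, 67.7 and 74.4 TPM in WT libraries (-0.35 ± 0.08; limma adjusted p = 0.0128; without TREM2-KO libraries 4 and 8 -0.29, limma adjusted p = 0.0624). All 24 kept genes of cholesterol synthesis had a change below 0 (median -0.17) and 0 were called. Without TREM2-KO libraries 4 and 8 the median of that list was 0.01. Of the LXR target and efflux list 3 of 19 fell (APOC1, APOE and APOC2) and 0 rose, with a median of 0.15. APOC2 lost its call in 10 of the 15 fits and without TREM2-KO libraries 4 and 8 (-0.79, limma adjusted p = 0.0972). Of 28 disease-associated microglia genes 9 fell and 0 rose, with a median of -0.47. The edited gene TREM2 is itself in that list and among the 9.

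UGCG and ST3GAL5 were members of the list of glycan and heparan sulfate synthesis, in which 5 of 48 genes fell and 0 rose (median -0.12; 9 fell with the block). CHSY1, a chondroitin synthase, had 11.5, 17.5 and 21 TPM in TREM2-KO libraries, against 21.9, 23.9 and 25.8 TPM in WT libraries (-0.47 ± 0.09; limma adjusted p = 0.0036), with no overlap. The proteoglycan core CSPG4 and the sulfotransferase HS3ST3B1 were the other two, with limma adjusted p = 0.0391 and 0.0494, and were lost in 9 and 13 of the 15 fits; CSPG4 was also lost with the stromal covariate (-0.73, limma adjusted p = 0.196). XYLT1, which starts the chains and is not in the list, had 12.2, 14.5 and 17.5 TPM in TREM2-KO libraries and 13.7, 20.7 and 21.8 TPM in WT libraries (-0.40 ± 0.08; limma adjusted p = 0.00493).

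Enzymes and transporters of other pathways were also lower. CYP19A1, the aromatase that makes oestrogens, had 0.31, 1.37 and 5.31 TPM in TREM2-KO libraries and 4.71, 9.91 and 14.5 TPM in WT libraries (-1.86 ± 0.36; limma adjusted p = 0.00292). SLC11A1, a metal transporter of the phagosome membrane, had 10.8, 16.1 and 39.5 TPM in TREM2-KO libraries and 28.1, 44.1 and 110 TPM in WT libraries (-1.33 ± 0.27; limma adjusted p = 0.00418). The groups overlapped in each. UBE2J1, a ubiquitin-conjugating enzyme of the endoplasmic reticulum, had 32.8, 44.7 and 51.3 TPM in TREM2-KO libraries, against 54.2, 58 and 66.1 TPM in WT libraries (-0.45 ± 0.07; limma adjusted p = 0.000191). PSEN2, the catalytic subunit of a gamma-secretase and an Alzheimer's disease gene, had 10.9, 15.2 and 19.7 TPM in TREM2-KO libraries, against 20.2, 23.6 and 25.9 TPM in WT libraries (-0.61 ± 0.10; limma adjusted p = 0.000286). Neither of these overlapped. Of 43 kept genes at Alzheimer risk loci 3 fell and 1, BIN1, rose (median 0.04). With the block 4 were higher and 3 lower. The 3 that fell in the main fit were FERMT2, PSEN2 and a gene with a change of -0.19. That gene lost its call in 10 of the 15 fits and with the block. BIN1, which shapes membranes, had 31.4, 51.8 and 77.9 TPM in TREM2-KO libraries and 26.3, 30.4 and 47.7 TPM in WT libraries (0.63 ± 0.14, limma adjusted p = 0.0106). It was not called with the stromal covariate (0.50, limma adjusted p = 0.0984), in the 15 libraries alone or without libraries 5 and 6 of both groups.

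**Figure D3:**
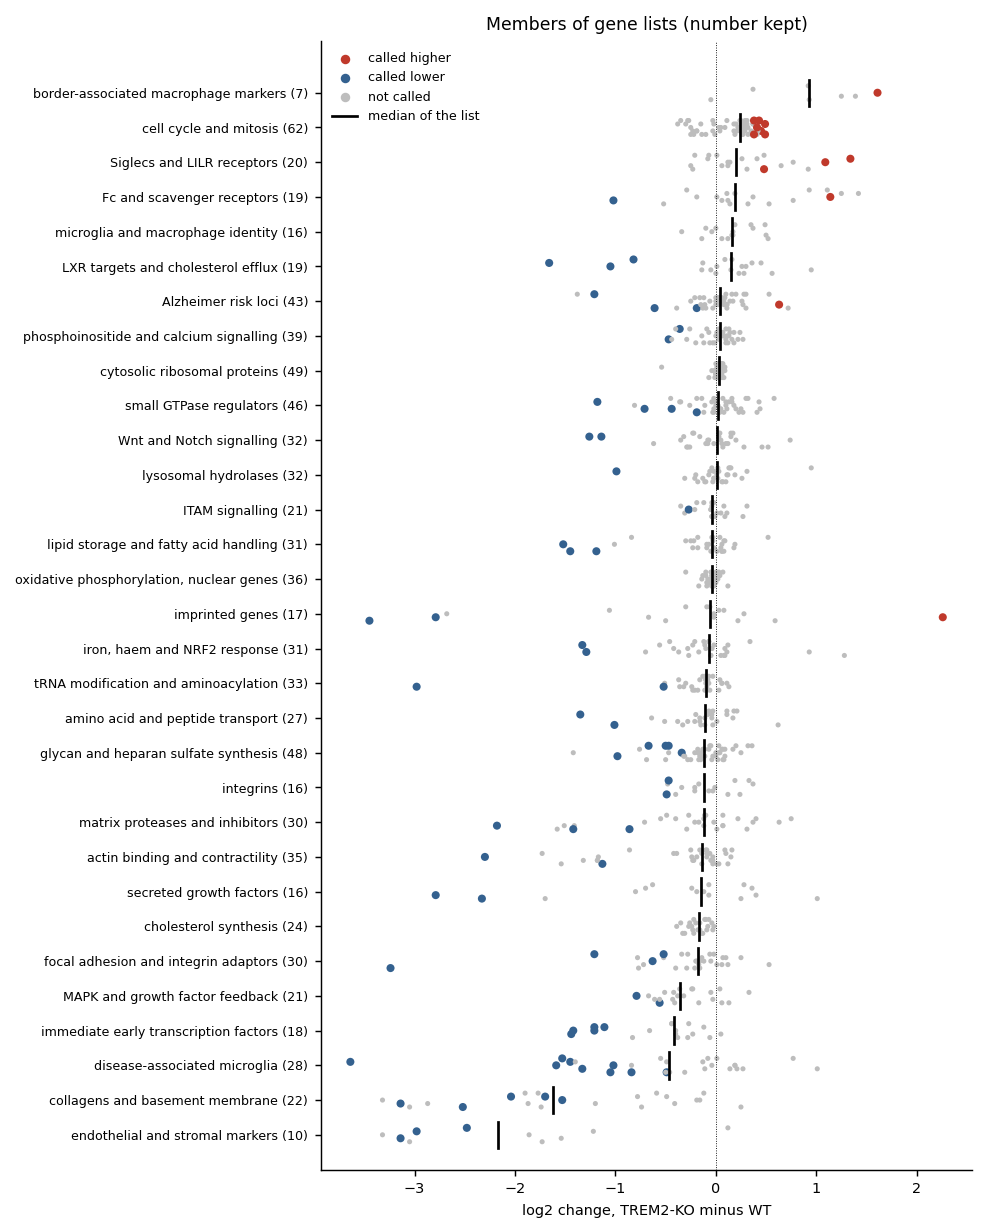
Change (TREM2-KO minus WT, log2) of each kept member of selected gene lists, with the number kept in brackets and the median as a black line. Collagens (median -1.62) and stromal markers (-2.17) lie lowest, while ribosomal proteins and oxidative phosphorylation genes cluster at 0.

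Collagens and stromal markers had the lowest medians of the 66 lists, and they varied widely among WT libraries. Of 22 kept collagen and basement membrane genes 5 fell and 0 rose (COL1A2, COL4A1, COL5A1, COL6A1 and COL6A2; median -1.62), and of 10 kept endothelial and stromal markers COL1A2, DCN and LUM fell and 0 rose (median -2.17). COL1A2, a chain of type I collagen, had 1.3, 2.94 and 58.2 TPM in TREM2-KO libraries and 3.06, 117 and 687 TPM in WT libraries (-3.14 ± 0.85; limma adjusted p = 0.0467). COL6A1, a chain of the microfibrillar type VI collagen, had 4.74, 6.88 and 14 TPM in TREM2-KO libraries and 7.75, 27.2 and 61.9 TPM in WT libraries (-1.53 ± 0.37; limma adjusted p = 0.0217). The imprinted RNA H19 had 0.15, 0.505 and 9.29 TPM in TREM2-KO libraries and 0, 11.8 and 533 TPM in WT libraries (-3.45 ± 0.87; limma adjusted p = 0.0288). All 3 overlapped between the groups: WT libraries 1, 3 and 7 lay below the highest TREM2-KO library for COL1A2, WT libraries 1 and 7 for COL6A1, and WT libraries 3 and 4 for H19. The calls of COL1A2, COL6A1 and H19 were lost in 10, 3 and 9 of the 15 fits without a library, in each case with the highest p without WT library 6 (limma adjusted p = 0.137, 0.0708 and 0.09). Those of COL4A1, COL5A1, COL6A2, DCN and LUM were lost in 10, 10, 2, 10 and 6 of the fits. Without TREM2-KO libraries 4 and 8, 2 collagens and 0 stromal markers were lower. With the block, 13 of the 22 collagens and 6 of the 10 stromal markers were lower and 0 higher. The stromal score holds 3 of the called genes. With the score as a covariate 0 collagens and 0 stromal markers were called and the collagen median was -0.02; COL6A1 kept a value of -1.32 (limma adjusted p = 0.105), and H19 was at -0.74 (limma adjusted p = 0.399). Against the 3 other edited lines COL1A2 and H19 differed by -0.14 and -0.05, and COL6A1 by -1.58 (limma adjusted p = 0.000213). With the covariate 76 genes were called higher (0.562%) and 189 lower (1.4%), and 147 of the 212 calls were kept in the same direction.

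**Figure D4:**
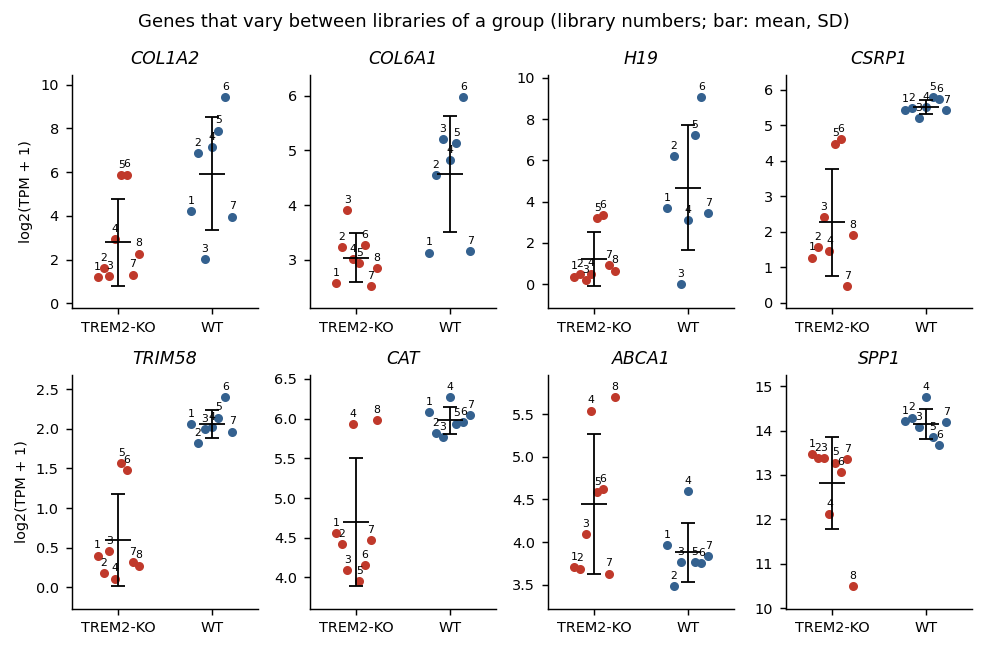
Levels of 8 genes as log2(TPM + 1) in each numbered library, TREM2-KO on the left and WT on the right of each panel; bars give the mean and SD. COL1A2, COL6A1 and H19 spread most in WT, and in TREM2-KO libraries 5 and 6 are high for CSRP1 and TRIM58 and libraries 4 and 8 for CAT and ABCA1.

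Some of the lower genes differed between TREM2-KO libraries by more than most. CSRP1, a LIM-domain protein bound to actin, was at 21.4 and 23.4 TPM in TREM2-KO libraries 5 and 6 and at 0.39 to 4.3 TPM in the other 6, against 35.6, 44.1 and 54.5 TPM in WT libraries (-3.24 ± 0.36; limma adjusted p = 2.3e-07). TRIM58, a ubiquitin ligase known from erythroblasts, was at 1.97 and 1.79 TPM in the same 2 libraries and at 0.08 to 0.37 TPM in the other 6, against 2.53, 3.07 and 4.26 TPM in WT libraries (-1.46 ± 0.18; limma adjusted p = 2.5e-06). Libraries 5 and 6 were thus intermediate for both genes and below every WT library. Catalase (CAT), which breaks down hydrogen peroxide, was at 59.9 and 62.2 TPM in TREM2-KO libraries 4 and 8 and at 14.5 to 22.6 TPM in the other 6, against 53.4, 61 and 76 TPM in WT libraries (-1.29 ± 0.25; limma adjusted p = 0.00252). Here libraries 4 and 8 lay within the WT range and the other 6 far below it. CAT was not called without libraries 5 and 6 of both groups. Against the 3 other edited lines CAT differed by 0.51, in the other direction (limma adjusted p = 0.0771). ABCA1, the cholesterol exporter, was at 45.6 and 50.8 TPM in libraries 4 and 8 and at 11.4 to 23.6 TPM in the other 6, against 10.2, 12.6 and 23.2 TPM in WT libraries, and was not called (0.56, limma adjusted p = 0.686). The secreted phosphoprotein SPP1 was lowest in the same libraries, at 4455 and 1447 TPM, against 8573 to 11279 TPM in the other TREM2-KO libraries and 13000 to 27424 TPM in WT libraries. Without libraries 4 and 8 together, an alternative chosen after these values were seen, 153 genes were called, 29 higher (0.215%) and 124 lower (0.917%), of which 119 were among the 212 in the same direction.

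The largest rise among the called genes was that of NLRP2, of the NLR family of cytosolic sensors. It had 5.44, 7.26 and 8.9 TPM in TREM2-KO libraries, against 0.13, 0.53 and 1.6 TPM in WT libraries (2.26 ± 0.17; limma adjusted p = 1.4e-11). The groups did not overlap, and the mean was 0.00857 TPM in TREM2-R47H libraries, 0.07 TPM in SORL1-KO libraries and 0.107 TPM in SORL1-A528T libraries. NLRP2 was the 1 called gene among 18 of the inflammasome and cell death list. With the block 3 of that list were higher and 0 lower, and with the stromal covariate 1 was higher and 1 lower. TMEM273, a small transmembrane protein of unclear role, had 5.77, 8.17 and 9.44 TPM in TREM2-KO libraries and 1.25, 1.74 and 5.92 TPM in WT libraries (1.54 ± 0.26; limma adjusted p = 0.000353). TCN2, which carries vitamin B12 in plasma, had 4.64, 5.95 and 8.15 TPM in TREM2-KO libraries, against 1.42, 2.05 and 4.52 TPM in WT libraries (1.00 ± 0.16; limma adjusted p = 0.000127). MNDA, an interferon-inducible nuclear protein of myeloid cells, had 1.08, 1.85 and 3.39 TPM in TREM2-KO libraries, against 0.18, 0.52 and 0.67 TPM in WT libraries (0.98 ± 0.17; limma adjusted p = 0.000531). TCN2 and MNDA did not overlap between the groups, and all 4 genes were also higher than in the 3 other edited lines, by 2.94, 0.81, 0.92 and 1.05. PROCR, the endothelial protein C receptor, and TBL1X, a subunit of corepressor complexes, rose by 0.64 and 1.02 (limma adjusted p = 0.00511 and 0.00699). TBL1X was highest in TREM2-KO libraries 4 and 8, at 31.5 and 34.9 TPM, with 11.7 to 20.1 TPM in the other 6 and 6.98 to 12 TPM in WT libraries, and was not called without those libraries (0.75, limma adjusted p = 0.0603).

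Receptors of the Siglec and LILR families were higher in 3 of 20 cases and lower in 0, with a median of 0.20 and 5 higher with the block. LILRB5, a receptor with inhibitory motifs in its tail, had 1.25, 2.65 and 4.39 TPM in TREM2-KO libraries and 0.15, 0.25 and 1.88 TPM in WT libraries (1.34 ± 0.21; limma adjusted p = 0.000127). SIGLEC12 had 3.63, 13.4 and 20.8 TPM in TREM2-KO libraries and 4.01, 5.32 and 10.2 TPM in WT libraries (1.09 ± 0.24; limma adjusted p = 0.00897). The lowest of its TREM2-KO values, in library 8, was below every WT library, and the call was lost with the stromal covariate (0.99, limma adjusted p = 0.0534) and without libraries 5 and 6 of both groups. SIGLEC10, a receptor for sialylated CD24, had 153, 163 and 207 TPM in TREM2-KO libraries, against 109, 122 and 145 TPM in WT libraries (0.48 ± 0.12; limma adjusted p = 0.0391). Its groups did not overlap, but the call was lost in 10 of the 15 fits and without TREM2-KO libraries 4 and 8 (0.39, limma adjusted p = 0.174). FCGR2B, the inhibitory Fc receptor for IgG, had 43.7, 64 and 117 TPM in TREM2-KO libraries and 21.2, 27.7 and 57.4 TPM in WT libraries (1.14 ± 0.30; limma adjusted p = 0.041), and FOLR2, a folate receptor of tissue macrophages, had 14.5, 20 and 68.2 TPM in TREM2-KO libraries and 4.13, 6.64 and 22.3 TPM in WT libraries (1.61 ± 0.43; limma adjusted p = 0.0467). Each lost its call in 11 of the 15 fits and without TREM2-KO libraries 4 and 8 (limma adjusted p = 0.174 and 0.235), and FOLR2 with the stromal covariate (1.81, limma adjusted p = 0.0513). With the block both were called (limma adjusted p = 0.000509 and 5.5e-05). In that fit 5 of 7 border-associated macrophage markers were called in place of 1, all higher. Of 19 Fc and scavenger receptors 7 were higher and 3 lower, in place of 1 and 1. Over all genes the block called 1.36% higher and 2.39% lower, in place of 0.303% and 1.27%. Summed border-associated macrophage markers were at 587 to 1606 TPM in TREM2-KO libraries and 425 to 964 TPM in WT libraries. These families have close paralogues, between which reads may be split.

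Some cell division genes rose by small amounts. Of 62 kept members of the cell cycle and mitosis list 7 rose and 0 fell, with a median of 0.24 and 18 members below 0, and 13 rose with the block and 4 without TREM2-KO libraries 4 and 8. TOP2A, the topoisomerase that untangles replicated chromosomes, had 99, 116 and 141 TPM in TREM2-KO libraries, against 76.4, 83.9 and 94.8 TPM in WT libraries (0.45 ± 0.10; limma adjusted p = 0.00926). CENPA, the histone variant of centromeres, had 22.3, 26 and 32.3 TPM in TREM2-KO libraries, against 16, 19.1 and 20.8 TPM in WT libraries (0.49 ± 0.11; limma adjusted p = 0.0084). Every TREM2-KO library was above every WT library for both genes. STMN1, a regulator of microtubule turnover, and HMGB2, a chromatin protein, rose by 0.38 each (limma adjusted p = 0.00492 and 0.0109) with overlap between the groups, and STMN1 was not called with the block (0.37, limma adjusted p = 0.0995). The mitotic motors KIF20A and CENPE and the spindle protein DLGAP5 completed the 7, and lost their calls in 3, 5 and 8 of the 15 fits. DLGAP5 was not called with the block either (0.42, limma adjusted p = 0.0872), and HMGB2, KIF20A, CENPE and DLGAP5 were not called without TREM2-KO libraries 4 and 8 (limma adjusted p = 0.0552, 0.0673, 0.0601 and 0.0791). PRR11, a gene of late cell cycle that is not in the list, had 53.3, 57.9 and 71.7 TPM in TREM2-KO libraries, against 38.9, 44.1 and 51.1 TPM in WT libraries (0.45 ± 0.09; limma adjusted p = 0.00692). The genes of replication licensing at the other end of the list, MCM2 and MCM6, had changes of -0.35 and -0.38 with standard errors as large, and did not pass the test. TREM2-KO libraries 4 and 8 were low for both, at 20.5 and 10.2 TPM of MCM2 and 21.4 and 8.32 TPM of MCM6. The other 6 had 47.6 to 58.9 TPM of MCM2 and 43.6 to 57.2 TPM of MCM6, within the ranges of 39.3 to 60.6 and 36.9 to 57.2 TPM in WT libraries.

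**Figure D5:**
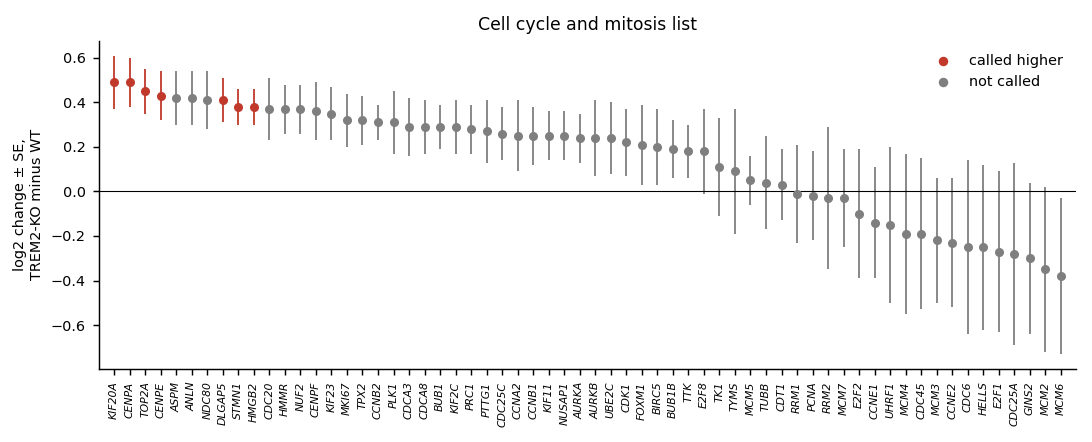
Change (TREM2-KO minus WT, log2) of the 62 kept genes of the cell cycle and mitosis list, in falling order, with the standard error of the limma fit. The 7 called genes are red and lie among the highest, and genes of replication such as MCM2 and MCM6 lie below 0 with wide errors, both low in TREM2-KO libraries 4 and 8.

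The promoters of the called cell division genes were read for the cell cycle homology region (CHR; TTTGAA or TTCGAA) and the CCAAT box (CCAAT), each on both strands, in RefSeq windows of 250 bases before and 50 after the start (GRCh38.p14); where a gene had several windows, a match in any was counted. Of the 6 called genes with a window 3 held both motifs (50%), as did 18 of 45 genes of the list that were not called (40%) and 663 of the 9948 kept genes with a window (6.66%). A match is a description of the letters. The windows of these 3 are shown to let the motifs be compared, with matches in capitals: TOP2A at chr17:40417847-40418146, minus strand, CENPA at chr2:26785806-26786105, plus strand, and DLGAP5 at chr14:55191536-55191835, minus strand.
TOP2A: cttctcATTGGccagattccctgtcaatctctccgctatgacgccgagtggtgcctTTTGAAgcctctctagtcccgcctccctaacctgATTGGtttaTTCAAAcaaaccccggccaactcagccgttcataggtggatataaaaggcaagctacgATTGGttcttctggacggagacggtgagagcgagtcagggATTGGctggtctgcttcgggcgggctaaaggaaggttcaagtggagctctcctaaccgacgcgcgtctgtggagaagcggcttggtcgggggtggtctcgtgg
CENPA: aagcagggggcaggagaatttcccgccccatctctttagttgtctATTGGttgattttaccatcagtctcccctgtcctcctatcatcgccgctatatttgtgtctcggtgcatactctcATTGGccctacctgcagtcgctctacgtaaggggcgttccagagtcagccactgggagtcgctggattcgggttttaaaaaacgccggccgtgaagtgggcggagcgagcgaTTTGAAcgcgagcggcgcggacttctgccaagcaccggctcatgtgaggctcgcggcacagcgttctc
DLGAP5: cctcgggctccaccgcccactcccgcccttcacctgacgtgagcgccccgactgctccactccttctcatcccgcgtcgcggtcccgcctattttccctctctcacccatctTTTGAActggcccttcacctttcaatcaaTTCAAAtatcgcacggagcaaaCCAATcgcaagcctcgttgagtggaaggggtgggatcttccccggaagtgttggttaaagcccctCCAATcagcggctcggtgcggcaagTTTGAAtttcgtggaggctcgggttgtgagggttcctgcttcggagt
The TOP2A window holds 2 CHR and 4 CCAAT matches, that of CENPA 1 and 2, and that of DLGAP5 3 and 2. Called and uncalled members of the list held the pair of motifs in similar shares.

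In 26 of the 66 lists 0 genes were called with limma. Among them were 49 cytosolic ribosomal proteins (median 0.03), 36 nuclear genes of oxidative phosphorylation (-0.04), 13 mitochondrially encoded genes (0.01), 30 proteasome subunits (-0.05), 34 genes of the type I interferon response (-0.02, or 0.41 with the stromal covariate), 17 of MHC class II presentation (0.19, or 0.38 with the covariate), 21 of NF-kB (-0.02), 27 pattern recognition receptors (0.12), 31 of autophagy (0.06) and 31 of retromer and endosomal sorting (0.01). Without TREM2-KO libraries 4 and 8 the medians of the interferon and MHC class II lists were -0.18 and -0.15. With the block, 1 interferon gene and 2 retromer genes were lower. Homeostatic microglia genes had 1 of 21 higher, BIN1, and 0 lower (median 0.17), with 5 higher and 1 lower under the block.

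The called genes included 15 pairs of neighbours less than 100 kb apart. Besides CRYZ with TYW3 and IL24 with FCMR, the starts of CYP19A1 and GLDN, which encodes gliomedin, a Schwann cell protein of nodes of Ranvier, lay 3019 bases apart on chromosome 15 on opposite strands. GLDN had 0.24, 0.995 and 2.39 TPM in TREM2-KO libraries, against 2.78, 3.69 and 7.01 TPM in WT libraries (-1.52; limma adjusted p = 0.00285), so both genes of that pair fell. CBR3-AS1 and DOP1B overlap on chromosome 21 and fell by 0.91 and 0.82 (limma adjusted p = 0.00386 and 0.000672), and since they lie on opposite strands their reads may not be told apart. The apolipoprotein genes APOE and APOC1 on chromosome 19 fell by 1.05 and 1.66 (limma adjusted p = 0.00538 and 3.8e-05), and APOC2 shares its exons with the readthrough gene APOC4-APOC2, whose call was lost in 6 of the 15 fits. Both genes changed in the same direction in each of the 15 pairs. They were lower in 12 pairs (80%) and higher in 3, and the genes of 4 pairs overlap. Among all 212 called genes 80.7% were lower, but that is a share of single genes and not of pairs. How many such pairs, or how much shared direction, other sets of genes would give was not tested.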

How the data were processed

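RNA was sequenced from 8 TREM2-KO and 7 WT libraries, and 25 libraries of other edited lines entered the same fit. Per the submitters' processing notes, cutadapt 1.18, STAR 2.7, RSEM 1.3.1 and DESeq2 were used by the authors, and the deposited values are TPM, 1 column per library; no genome build is stated in the labels. Column sums lay between 999999.15 and 1000000.76. TPM keep no read counts, so the depth of a library is unknown beyond the mean of 45.13 M reads that the labels state, with extremes of 39.2 and 64.6 M, and the precision of a value is that of its replicate libraries.

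From there, log2(TPM + 1) values of the 40 libraries were fitted jointly by limma 3.58.1 (R 4.3.3), with 1 mean for each of 7 groups and empirical Bayes variances that were trended and robust. P-values were two-sided. The procedure was also run on simulated data, in which the deviations of each gene were dealt at random over the 40 libraries. That removes differences that many genes share within a library, so the run cannot give the rate of false calls in the real data. Symbols and positions were matched for 94.2% of gene IDs by Ensembl ID, with positions from GENCODE 29 (GRCh38), and promoter windows came from RefSeq. Libraries with the same number were treated as paired only in the fits with the block, and the main fit has no block. The ground for it was that the correlation of their deviations from the group means was above 0.1 for each of 7 numbers (0.125 to 0.333). Of the 7, 4 were highest with their own number, and the labels do not say what a number marks. The members and gene lists were chosen with earlier results of these data known. Genes were named by a rule (called genes with a group mean of at least 5 TPM and no more than 1 library past the midpoint of the groups: the 15 largest log2 changes and the 10 largest TPM differences each way, and up to 4 called members of each list), and 25 of the 91 named here were chosen outside it after their values were seen. Not every gene that the rule picks is reported here. Alternatives are given at the end.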

Additional observations from a re-analysis of the deposited data

Results flagged for a closer look

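A single library lay far from the rest of its group for some of the genes named here: in 182 groups of 7 or 8 values the gap of the highest or lowest library to its nearest neighbour exceeded Dixon's 95% limit 10 times, and chance flags about 1 in 20 groups. WT library 4 accounted for 5 of these. It was the highest WT library for ABCA1 (23.2 TPM, next 14.6 TPM), LILRB5 (1.88 TPM, next 0.36 TPM) and PROCR (37.1 TPM, next 21.8 TPM), and the lowest for CD52 (62.4 TPM, next 150 TPM) and XYLT1 (13.7 TPM, next 18.4 TPM). In each of these WT library 4 lay on the side of the TREM2-KO libraries. TREM2-KO library 8 accounted for 3, as the lowest of its group for NCAM1 (1.18 TPM, next 3.63 TPM), SIGLEC12 (3.63 TPM, next 11.4 TPM) and SPP1 (1447 TPM, next 4455 TPM). TREM2-KO library 4 was lowest for PCYT1A (41.3 TPM, next 49.9 TPM). TYW3 was at 0 TPM in TREM2-KO library 3 and at 0.06 TPM in the next, a gap that a table with 2 decimals does not resolve well.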

How the results depend on the processing

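The count of 212 called genes ran from 136 (without WT library 2) to 219 (without WT library 3) when single libraries were left out. It moved beyond 1.5 times with a filter of 5 TPM (129 genes of 10183), with the replicate block in the fit of all 40 libraries (506) or of the 15 alone (507), with limma arrayWeights (622), and without libraries 5 and 6 of both groups (133, an alternative chosen after the data were seen). Of these, the filter and the left-out libraries reduce the genes or samples tested; the cause of the others was not tested. The TREM2 change ran from -3.77 to -3.50 and kept its call in all alternatives. No gene examined reversed. Of 117 called genes other than TREM2 that were followed, 45 kept their call under every alternative and 72 lost it under at least 1. The fit of the 15 libraries alone ended 42 of these calls, no filter 26, the stromal score 23, leaving out TREM2-KO libraries 4 and 8 together 41, leaving out libraries 5 and 6 of both groups 44, and libraries 5 and 6 averaged 27. TREM2-KO libraries 5 and 6 had close values for some genes, as COL1A2 (57.4 and 58.2 TPM) and CSRP1 (21.4 and 23.4 TPM). For FYN they were at 13.9 and 9.09 TPM, and WT libraries 5 and 6 had 238 and 687 TPM of COL1A2. The main fit counts libraries 5 and 6 as separate, and whether they are independent was not tested. With them averaged in each group, also chosen after the data were seen, 154 genes were called, 31 higher and 123 lower. Against the 3 other edited lines, median-ratio scaling called 1929 genes in place of 2144 and the replicate block 2747. Some named genes kept their call without any single library but lost it elsewhere. In the 15 libraries alone APOE, BIN1, EGR1, EGR3, FCMR, NAB2, SIGLEC12, SPP1, STMN1 and XYLT1 were not called. Without libraries 5 and 6 of both groups ATF3, BIN1, CAT, CD52, EGR2, GLDN, LPL, RGS4 and SIGLEC12 were not called. Without counts, no limit of detection can be given for genes near 0 TPM.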
